A study of Junonia coenia with 24 samples.

Results

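Of 500558 intervals in the forewing table of Junonia coenia, the common buckeye butterfly, 667 were open in the groups labelled 5th instar and 72 h and at least 3-fold lower in the groups labelled prepupa and 6 d. These pairs are called the open and the closed groups. They were chosen by mean CPM, the count of an interval divided by its library's total and scaled to counts per 1000000. The gap is relative, so that a member of high level can keep many reads in the closed groups. The means at the 5th instar and at 72 h had to reach 3 CPM each, and the means at prepupa and at 6 d had to be at least 3-fold below the lower of those. A minimum of 3 CPM in both open groups was met by 42130 forewing intervals, and the members were 1.58% of these.

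Open chromatin was measured by ATAC-seq, in which a hyperactive Tn5 transposase cuts accessible DNA and tags it for sequencing, on nuclei of whole wing tissue from insects reared at about 27 °C. Each wing, forewing and hindwing, was sampled at the 5th larval instar, at the prepupa, 72 h after pupation and 6 d after pupation, a group whose titles say day 7, with 3 libraries a group and 24 in all. The series names left and right wings, and the labels of the libraries do not give the side. Whole wing tissue holds several cell types, so that a site open in fewer cells and a site less open in each cell cannot be told apart.

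Butterfly wings grow as larval imaginal discs, evert at the prepupal stage and build their scales and pigments in the pupa. Pulses of the steroid hormone ecdysone time these steps through the nuclear receptor EcR, which binds regulatory DNA and changes the transcription of nearby genes. Spineless, the other transcription factor named in the title of the series, is known from Drosophila for its part in antennal identity. Accessible intervals outside coding sequence are often enhancers or promoters. Neither gene annotation nor sequence of the contigs was used here, so the members are given by contig, start and end, with positions counted from 1. They are not placed in genes, and the tissue labels were not checked against marker genes.

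Forewing libraries held 7733254 to 22020858 counts in intervals, those of 72 h being the deepest, and hindwing libraries held 6977525 to 14795457. From earlier results of these data it was known that, beyond the 5th instar, a stage label did not stand for like profiles in forewing and hindwing, and that hindwing prepupa replicate 2 stood apart from replicates 1 and 3. Stage names are therefore used as labels, and no library was moved.

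In the forewing the members were as open at 72 h as at the 5th instar. The median member had 11.5, 12.4 and 12.6 CPM in the 3 libraries of the 5th instar, 2.16, 1.91 and 2.13 CPM at prepupa, 11.3, 14.4 and 10.9 CPM at 72 h, and 1.86, 1.86 and 1.85 CPM at 6 d. These are the values that chose the members, and they are given as a description. The members held 1.24% to 1.39% of a library's counts at the 5th instar, 0.212% to 0.219% at prepupa, 1.12% to 1.45% at 72 h and 0.194% to 0.210% at 6 d. Replicates of a group lay close together, and no library of an open group came near a library of a closed group in these medians. The closed means reached 4.19 CPM at prepupa and 3.73 CPM at 6 d at the upper quartile, and 30.2 and 24.4 CPM at most. At 635 of the 667 members every one of the 6 open libraries lay above every one of the 6 closed libraries, where 9.41% of all intervals open at the 5th instar and 72 h did so, an order that the rule itself favours. The median member rested on 89 to 124 counts per library at the 5th instar and 169 to 266 at 72 h, against 17 to 21 at prepupa and 16 to 18 at 6 d, so that the depth of closure was measured less precisely than the height of opening.

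**Figure D1:**
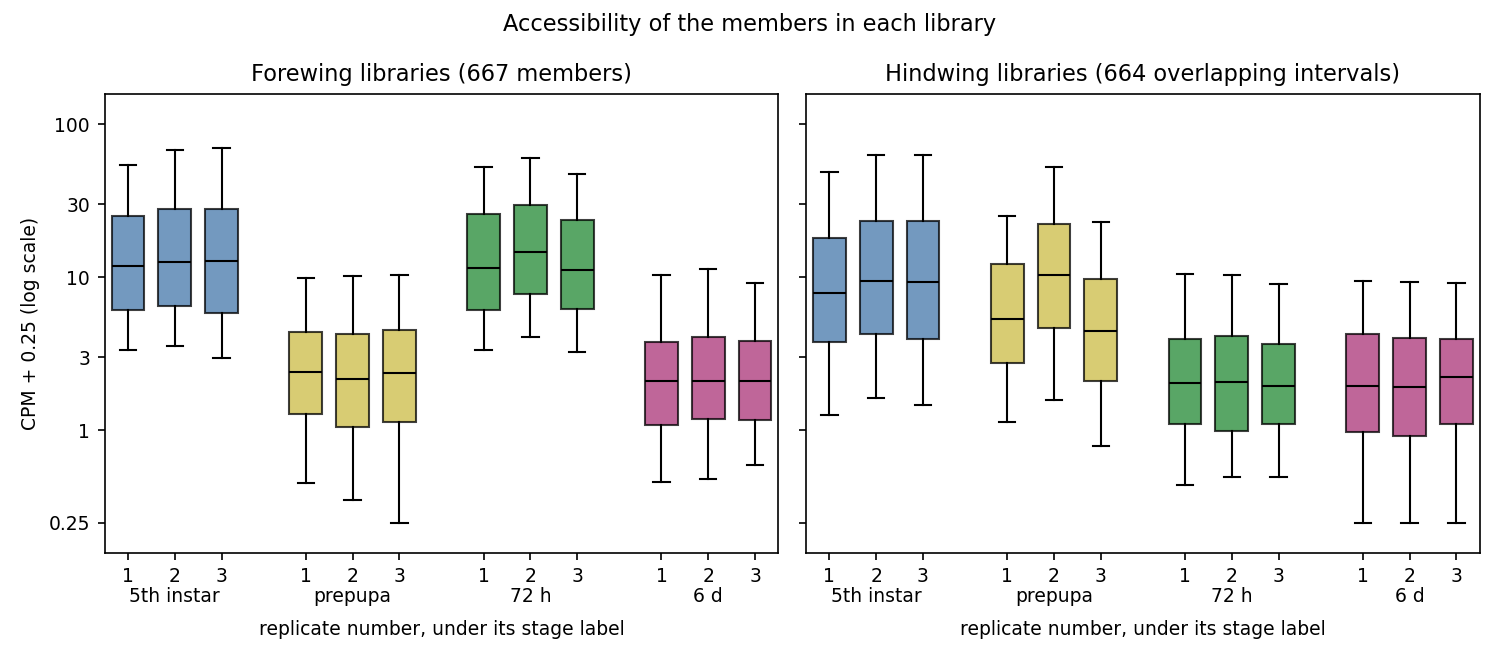
Accessibility of the members in each of the 24 libraries, as CPM + 0.25 on a log scale, with forewing libraries on the left and the overlapping hindwing intervals on the right, grouped by stage label. Boxes show quartiles over intervals with the median as a line, and whiskers run from the 5th to the 95th percentile. In the forewing the boxes of the 5th instar and 72 h stand above those of prepupa and 6 d, whereas in the hindwing those of the 5th instar and prepupa stand above those of 72 h and 6 d, with prepupa replicate 2 above replicates 1 and 3.

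A repeat of the choice with replicate 1, 2 or 3 of every group left out gives values that the choice had not used. Without replicate 1 the rule chose 727 intervals, and in replicate 1 itself both open groups lay above both closed groups at 681 of them (93.7%), against 22.4% of all intervals open in the other replicates. For replicate 2 this held at 592 of 615 intervals (96.3%, background 22.4%), and for replicate 3 at 733 of 822 (89.2%, background 21.5%). The full 3-fold gap was kept less often. It was present in the left-out library set at 369 of 727 intervals for replicate 1 (50.8%, background 1.74%), at 372 of 615 for replicate 2 (60.5%, background 2.01%) and at 350 of 822 for replicate 3 (42.6%, background 1.66%). The direction of the pattern thus recurred in the replicate left out at most intervals, and the size of the gap at 42.6% to 60.5% of them.

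Most members exceeded the required gap by a modest margin. The lower open mean was 3.83 times the higher closed mean at the median member, with quartiles of 3.33 and 4.87 and a highest value of 24.98. The interval with the widest gap lay on contig 000512F, 99111 to 99497, and had 3.39 CPM in the 5th-instar group, 0.136 in the prepupa group, 4.43 in the 72 h group and 0.0769 in the 6 d group. Just inside the level threshold, contig 000004F, 4305698 to 4306077, had 3.02 CPM at 72 h, and just outside it contig 000019F, 3390215 to 3390476, had 2.997 CPM at the 5th instar with a gap of 3.67. Just inside the gap threshold, contig 000087F, 1337132 to 1337723, had 5.66 CPM at the 5th instar and 1.88 at prepupa, and just outside it contig 000077F, 372045 to 372311, had 3.93 and 1.31 CPM. The borders of the group are thus set by the rule and not by a break in the values.

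Members were narrower and more densely covered than the other intervals open in both groups. Their widths ran from 149 to 4436 bp with a median of 519 bp (quartiles 368 and 742.5), compared with a median of 672 bp (quartiles 478 and 994) for the other 41463 such intervals and 122 bp for all forewing intervals. The lower open mean was 9.98 CPM at the median member, against 5.29 CPM at the other intervals. Per kb of interval these medians were 19.6 and 8.58 CPM. Level and width take part in the rule or move with it, so these differences are a description and were not tested.

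The members of highest level, ranked by the lower of the open means, differed in how far they closed. Contig 000001F, 4600521 to 4604956, the widest member and the first by level, had 76.7, 111 and 140.4 CPM at the 5th instar, 35.5, 36.4 and 18.8 CPM at the prepupa, 229.9, 333 and 161 CPM at 72 h and 23.6, 24.0 and 25.1 CPM at 6 d. All 72 h libraries lay above all 5th-instar libraries there, and the open and closed groups did not overlap. The next by level, contig 000003F, 5376034 to 5377393, averaged 123.8 ± 21.3 CPM at the 5th instar, 17.6 ± 2.53 at prepupa, 97.8 ± 5.59 at 72 h and 5.83 ± 1.38 at 6 d (SD, n = 3 each). Contig 000199F, 237316 to 238604, had the widest gap among the 10 members of highest level, with 109 ± 12.3 CPM at the 5th instar, 8.59 ± 0.496 at prepupa, 81.5 ± 13.2 at 72 h and 6.68 ± 0.723 at 6 d (SD, n = 3 each). Contig 000205F, 514309 to 516042, stood almost level between the open groups, with 96.9 ± 10.8 CPM at 72 h and 94.6 ± 4.43 CPM at the 5th instar (SD, n = 3 each).

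The balance between the open groups varied among members around equality. The 72 h mean was above the 5th-instar mean at 329 members and below it at 338, and the ratio of 72 h to 5th instar had a median of 0.994 with quartiles of 0.744 and 1.34. At 404 members these means were within 1.5-fold of each other, whereas 72 h was at least 2-fold higher at 62 and at least 2-fold lower at 65. All 72 h libraries lay above all 5th-instar libraries at 139 members (background 21.8% of the intervals open in both groups) and below them at 142 (background 25.8%), and both counts were near the background. Contig 000006F, 3270322 to 3270637, had the highest ratio, 9.19, with 56.9, 65.6 and 49.6 CPM at 72 h against 6.72, 5.78 and 6.22 CPM at the 5th instar. Contig 000077F, 575270 to 576090, had the lowest, 0.135, with 5.63, 8.91 and 6.24 CPM at 72 h against 43.7, 49.2 and 61.0 CPM at the 5th instar. In neither of these did the groups overlap.

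The hindwing libraries took no part in the choice and provide a separate reading of the same places. Of the 667 members, 664 overlapped an interval of the hindwing table by at least 1 bp, each a different one when the longest overlap was taken, and 185 overlapped several. The hindwing intervals had a median width of 404.5 bp, so that a hindwing CPM covers part of the forewing interval in many cases. The 3 members without a hindwing interval lay on contigs 000007F (1013256 to 1013535), 000290F (321410 to 321850) and 000450F (115828 to 116466), and had 3.12 to 3.27 CPM in the forewing at the 5th instar. Of the 664 hindwing intervals, 642 held enough counts to be tested. The other 22 were 42 to 229 bp wide and had at most 1.93 CPM at the 5th instar.

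In the hindwing the members were open at the 5th instar, lower in most prepupa libraries and lowest at 72 h and 6 d, going by medians. The median member had 7.60, 9.16 and 9.02 CPM in the 3 libraries of the 5th instar, 5.10, 10.04 and 4.21 CPM at prepupa, 1.78, 1.83 and 1.70 CPM at 72 h, and 1.71, 1.66 and 1.99 CPM at 6 d. By these medians the 72 h libraries, high in the forewing, were thus among the low ones here, and the prepupa libraries, low in the forewing, were the second highest group. Over 664 members, mean CPM at forewing 72 h had a Spearman coefficient of 0.82 with hindwing prepupa and 0.72 with hindwing 72 h. Forewing 6 d had 0.88 with hindwing 72 h and 0.72 with hindwing 6 d. Forewing prepupa had 0.92 with hindwing 6 d and 0.77 with hindwing prepupa. The labels thus crossed between the wings, and why was not tested. At the upper quartile the members kept 3.60 CPM at 72 h and 3.73 CPM at 6 d, and 97.1 and 41.8 CPM at most. The 4 stages differed at 612 of the 642 tested intervals (edgeR joint test, adjusted p under 0.05), against a background of 39.1% of all 258640 tested hindwing intervals. At other places open in both forewing groups the share was 66.2%.

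Read over the same labels as in the forewing, the pattern was not repeated in full in any member. None of the 664 hindwing intervals met the forewing rule with 5th instar and 72 h as the open groups, a rule met by 292 of 488675 hindwing intervals (0.0598%). That share is so low that finding none among 664 does not set the members apart. Both means of the 5th instar and 72 h lay above both means of prepupa and 6 d at 23 members, where 24.0% of the hindwing intervals at places open in both forewing groups had that order. With those labels contrasted as averages on the log2 scale, 271 of 642 intervals were higher at 5th instar and 72 h than at prepupa and 6 d, and 5 were lower (edgeR, adjusted p under 0.05, background 19.2% higher and 14.1% lower). Higher calls made up 42.2% of the members, beside 42.1% of 40840 tested intervals at other places open in both forewing groups, whereas lower calls made up 0.779%, beside 12.1%. The differences between these sets were not tested. Scaled by library totals alone, 184 were higher and 41 lower, against 30451 higher and 85783 lower of all 258640 tested intervals. The median difference was 0.71 (log2), against 0.45 at those other places and -0.05 over all tested hindwing intervals, or 0.29 against -0.50 over all tested intervals with library totals alone. Without hindwing prepupa replicates 1 and 3, an alternative added after seeing the data, the median was 0.37, against 0.02 over all tested intervals. Without prepupa replicate 2, 412 of 648 were higher and 2 lower, against 58854 higher and 40784 lower of all 289536 tested intervals.

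With 5th instar and prepupa set against 72 h and 6 d, nearly all members were called, and all in 1 direction. Of 642 tested intervals 593 were higher at the 5th instar and prepupa and none was lower (edgeR, adjusted p under 0.05), against a background of 7.51% higher and 5.93% lower over all tested hindwing intervals. At an unadjusted p under 0.05 a single interval was lower, and DESeq2 called 589 higher and 0 lower. The median difference was 2.12 (log2; quartiles 1.62 and 2.67), against 0.05 over all tested intervals. This grouping of labels was chosen with the likeness of hindwing prepupa to forewing 72 h already known. The 49 tested members without a call were weaker in the hindwing, with a median of 2.91 CPM at the 5th instar against 10.2 CPM for the 593, and 47 of them had a difference above 0.

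The same forewing rule, applied to hindwing means with 5th instar and prepupa as the open groups, was met by 394 hindwing intervals (0.0806% of the table). Of these, 206 were the intervals of members, which is 52.3% of that hindwing list and 31.0% of the 664. Means of both open groups lay above means of both closed groups at 622 of 664 members (93.7%), where 19.7% of the hindwing intervals at places open in both forewing groups had that order. In the plot of calls by contrast the members' share called higher stands far above the background for this grouping. For the labels of the forewing rule it is near that of the other open intervals, and the share called lower is below theirs.

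**Figure D2:**
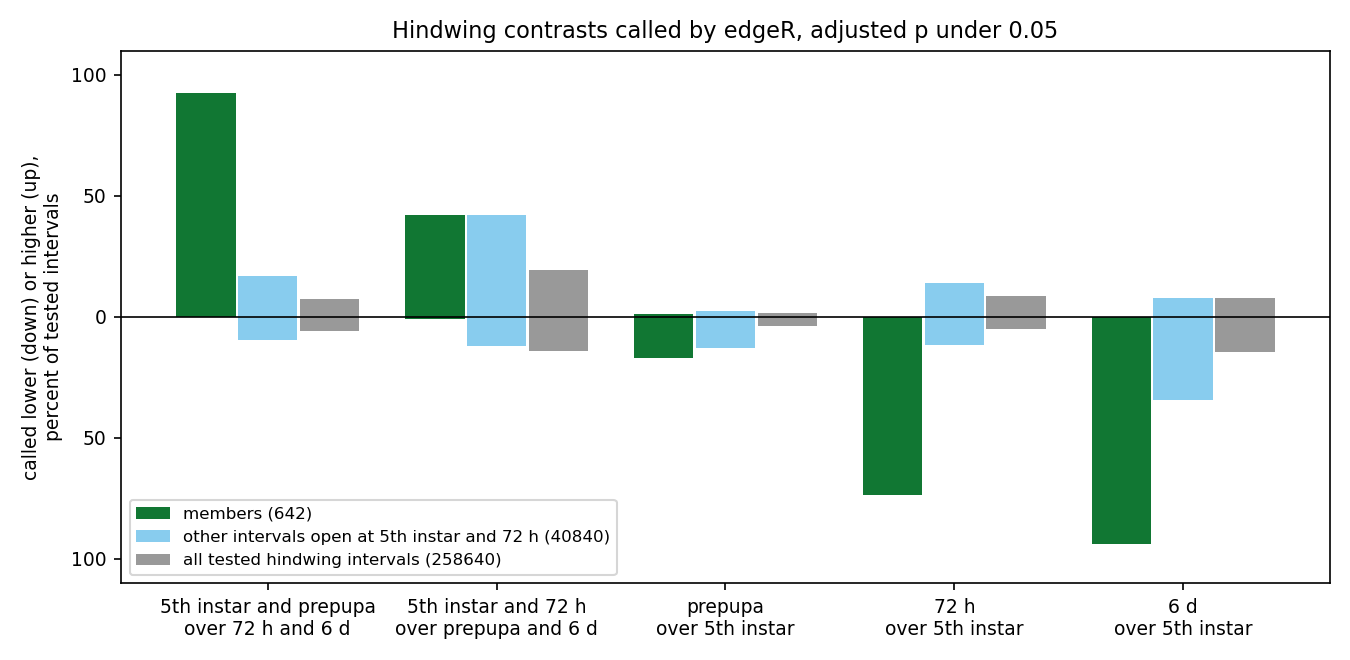
Percent of tested hindwing intervals called higher (upward bars) or lower (downward bars) by edgeR in 5 contrasts, for the 642 members' intervals, for 40840 intervals at other places open in the forewing at 5th instar and 72 h, and for all 258640 tested intervals. Members reach 92.4% higher with 5th instar and prepupa over 72 h and 6 d, and 93.6% lower at 6 d than at the 5th instar.

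Set against the hindwing 5th instar, most members fell at both pupal labels. At 72 h 473 of 642 were lower and 1 was higher than at the 5th instar (edgeR, background 5.0% lower and 8.69% higher), with a median log2 change of -2.09, against -0.01 over all tested intervals. At 6 d 601 were lower and none higher (edgeR, background 14.5% lower and 7.74% higher), with a median of -2.75 against 0.07. At an unadjusted p under 0.05 and by DESeq2, 0 were higher as well. At other places open in both forewing groups, 11.5% were lower and 14.2% higher at 72 h, with a median of -0.02. For 6 d these places had 34.3% lower and 7.96% higher, with a median of -0.50. Both falls were called at 462 members, and neither at 30, counts for which no background over all tested intervals was taken. The exception that rose at 72 h was contig 000024F, 182476 to 182663, which lies at the end of a hindwing interval of 181763 to 182663 that is wider than the member. That interval had 8.64, 8.43 and 11.9 CPM at 72 h against 5.88, 3.18 and 2.89 CPM at the 5th instar, without overlap (edgeR, log2 change 1.53 with an SE of 0.38, adjusted p = 0.00774).

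Between prepupa and 5th instar of the hindwing the result depended on the library. With all libraries 109 of 642 members were lower and 8 higher at prepupa than at the 5th instar (edgeR, background 3.77% lower and 1.47% higher), with a median log2 change of -0.72 against 0.10 over all tested intervals. Lower calls made up 17.0% of the members, beside 12.7% at other places open in both forewing groups, where the median was -0.28. Replicate 2 alone was at the level of the 5th instar, with a median log2 ratio of 0.02 to the 5th-instar mean (quartiles -0.47 and 0.60), whereas replicates 1 and 3 stood at -0.79 and -1.03. Replicate 2 was the highest prepupa library at 612 of 664 members (92.2%, background 50.9%). Without replicates 1 and 3, which leaves replicate 2 alone, the median over members was 0.03, against 1.8e-05 over all tested intervals. Without replicate 2, 3 of 648 members were higher and 348 lower, against 6084 higher and 19123 lower of all 289536 tested intervals. The omission of prepupa replicate 1 or of replicate 3 left 34 lower, against 3768 and 4135 over all tested intervals. That of replicate 2 or 3 of the 5th instar left 42 and 41, against 4434 and 4340, in that order. What sets replicates 1 and 3 apart was not tested.

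**Figure D3:**
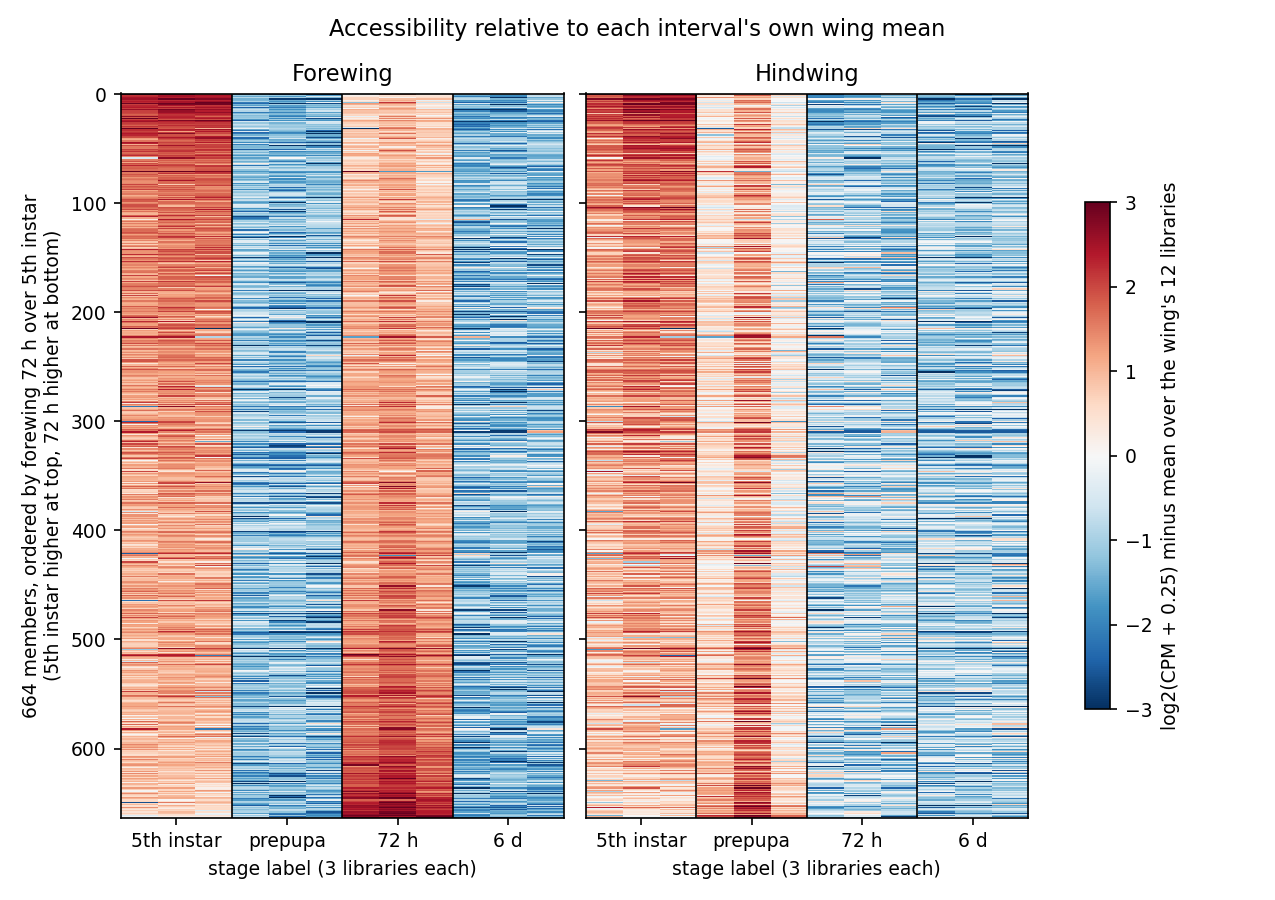
Accessibility of 664 members in all 24 libraries, as log2(CPM + 0.25) minus the interval's mean over the 12 libraries of that wing, with red above and blue below that mean. Rows run from members more open at the 5th instar of the forewing (top) to members more open at 72 h (bottom). The red columns are 5th instar and 72 h in the forewing, and 5th instar and prepupa in the hindwing, where replicate 2 is the reddest of the prepupa libraries, and the gradient down the forewing 72 h columns recurs down the hindwing prepupa columns.

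Over members, the balance between the open forewing groups went with ratios in the hindwing. Over 664 members the forewing log2 ratio of 72 h to 5th instar correlated with the hindwing log2 ratio of prepupa to 5th instar at a Spearman coefficient of 0.69 (Pearson 0.74). With prepupa replicates 1, 2 and 3 taken singly the Spearman coefficients were 0.65, 0.64 and 0.59. The forewing ratio correlated less with the hindwing ratio of 72 h to 5th instar (0.44) and of 6 d to 5th instar (0.45). These coefficients run across intervals, which are not independent replicates, and the hindwing ratios share the 5th-instar libraries. The ratios of both wings are taken to the 5th instar, whose mean CPM correlated between the wings at 0.92 (Spearman). No coefficient was computed for other intervals, so whether the link is particular to the members was not tested. The forewing and hindwing values come from different libraries.

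**Figure D4:**
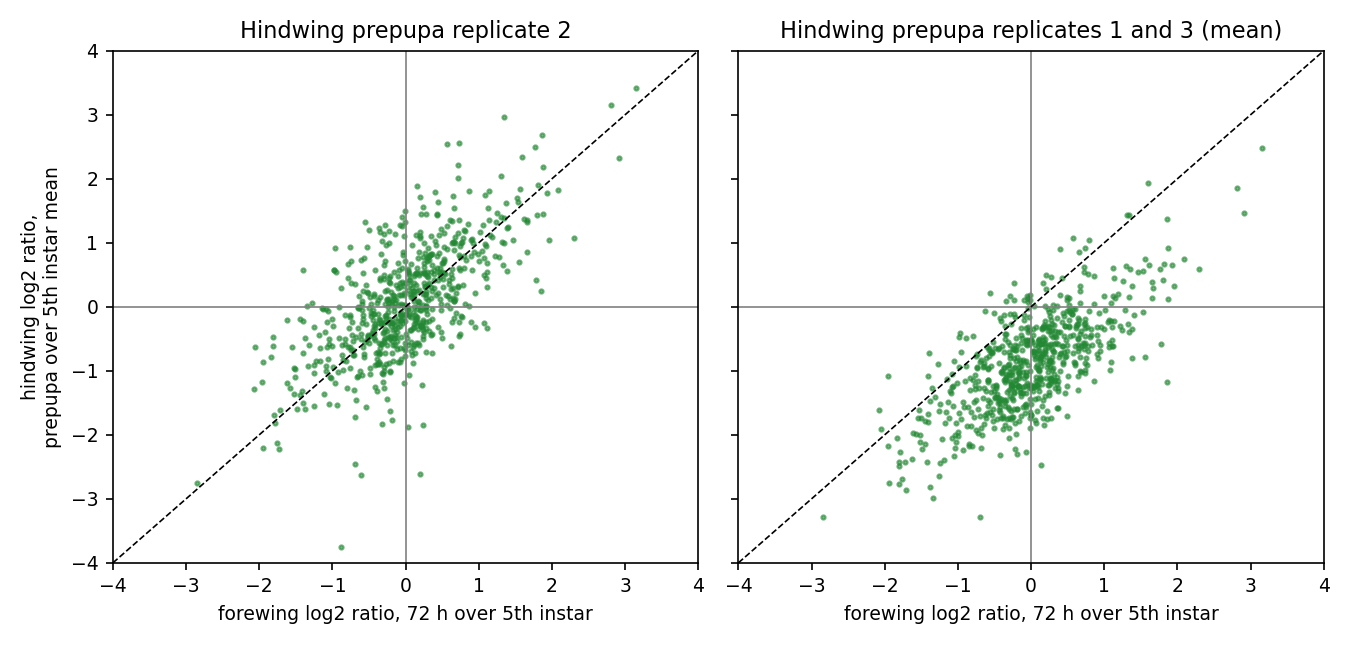
Forewing log2 ratio of 72 h to 5th instar (x axis) against the hindwing log2 ratio of prepupa to the 5th-instar mean (y axis) for 664 members, with prepupa replicate 2 on the left and the mean of replicates 1 and 3 on the right, with 0.25 CPM added to each value. The dashed line marks equal ratios. Points scatter around the dashed line for replicate 2 and mostly below it for the mean of replicates 1 and 3.

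Members at the ends of that range show it singly. At contig 000006F, 3270322 to 3270637, the wider hindwing interval of 3268891 to 3270849 had 74.8, 178.7 and 111 CPM at prepupa against 17.9, 15.4 and 16.4 CPM at the 5th instar (edgeR, log2 change 2.69 with an SE of 0.38, adjusted p = 0.000232). The member on contig 000194F, 620042 to 620588, with 37.9 ± 5.64 CPM at 72 h against 5.17 ± 1.68 CPM at the 5th instar of the forewing, had 14.0, 29.6 and 9.86 CPM at prepupa against 0.860, 2.75 and 5.68 CPM at the 5th instar of the hindwing (SD, n = 3 each; edgeR, log2 change 2.29 with an SE of 0.54, adjusted p = 0.0149). Both were among the 8 members that rose at hindwing prepupa, and no library of the groups compared overlapped. At the other end, contig 000077F, 575270 to 576090, fell in the hindwing to 5.00, 6.27 and 3.44 CPM at prepupa, against 32.8, 47.4 and 50.3 CPM at the 5th instar (edgeR, log2 change -3.39 with an SE of 0.35, adjusted p = 2.58e-05). In these 3 members, named for their forewing ratio, prepupa of the hindwing lay on the same side of the 5th instar as 72 h of the forewing did.

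Over all members the hindwing calls at prepupa went with the forewing balance. Among the 59 tested members at least 2-fold higher at 72 h than at the 5th instar of the forewing, 7 rose and none fell at hindwing prepupa relative to the 5th instar, with a median log2 change of 0.44. Among the 65 at least 2-fold lower, none rose and 41 fell, with a median of -1.72. Among the 518 between these limits 1 rose and 68 fell, with a median of -0.71. Over all tested hindwing intervals 1.47% rose and 3.77% fell, and at other places open in both forewing groups 2.34% rose and 12.7% fell. Those other places were not split by their forewing balance, so whether this link is particular to the members was not tested.

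Among the members with the lowest adjusted p in the hindwing were several of the most open ones at its 5th instar. The lowest adjusted p for 5th instar and prepupa over 72 h and 6 d was at contig 000003F, 5267772 to 5268328. It had 30.1, 37.1 and 30.6 CPM at the 5th instar, 19.0, 30.8 and 17.1 CPM at the prepupa, 2.16, 1.47 and 1.46 CPM at 72 h and 1.46, 2.77 and 1.28 CPM at 6 d of the hindwing, so that the open and closed libraries lay far apart (edgeR, log2 difference 3.90, SE 0.29, adjusted p = 5.5e-07). Contig 000158F, 713363 to 713856, averaged 84.3 ± 18.9 CPM at the 5th instar, 34.9 ± 16.8 at prepupa, 3.95 ± 0.171 at 72 h and 3.93 ± 0.683 at 6 d in the hindwing (SD, n = 3 each; edgeR, log2 difference 3.79, SE 0.30, adjusted p = 5.79e-07). Contig 000001F, 2166224 to 2167055, averaged 87.5 ± 15.1, 22.4 ± 11.1, 3.69 ± 0.762 and 2.75 ± 0.834 CPM over these stages (SD, n = 3 each; edgeR, log2 difference 3.81, SE 0.31, adjusted p = 6.15e-07).

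For the labels of the forewing rule, the lowest adjusted p in the hindwing belonged to a member with hardly any reads at 6 d. Contig 000008F, 4289905 to 4290494, had 22.5, 25.4 and 23.0 CPM at the 5th instar, 3.51, 4.93 and 3.06 CPM at the prepupa, 2.82, 3.42 and 1.94 CPM at 72 h and 0, 0.444 and 0.142 CPM at 6 d. Its 72 h libraries stood beside the prepupa libraries and far below the 5th instar, so that its call (edgeR, log2 difference 3.56, SE 0.34, adjusted p = 6.42e-07) rested on the 5th instar and on the depth of closure at 6 d. Of the 113 tested members with a difference below 0, 5 were called lower. They lay on contigs 000006F, 000048F, 000072F, 000117F and 000168F. By group means each was most open at prepupa in the hindwing and more open at 72 h than at the 5th instar in the forewing. Contig 000168F, 125628 to 126798, had 20.4, 47.3 and 17.6 CPM at hindwing prepupa and 1.41, 1.10 and 2.31 CPM at hindwing 72 h (edgeR, log2 difference -0.93, SE 0.31, adjusted p = 0.0261).

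Related forewing patterns differed from the members in the hindwing in part. Forewing intervals open at the 5th instar and 72 h and 3-fold lower at prepupa but not at 6 d numbered 2601, and those 3-fold lower at 6 d but not at prepupa numbered 1521. In the hindwing, a fall at 6 d relative to the 5th instar was called at 93.6% of the tested members, at 96.2% of the intervals low at prepupa only and at 51.0% of those low at 6 d only. A fall at 72 h was called at 73.7% of the members, 9.26% of those low at prepupa only and 65.3% of those low at 6 d only. All non-member places open in both forewing groups had a share of 34.3% at 6 d and 11.5% at 72 h. A hindwing fall at 72 h was thus called at most members and most intervals low at 6 d only, but at fewer of those low at prepupa only than a fall at 6 d was. For 5th instar and prepupa over 72 h and 6 d the shares called higher were 92.4% of the members, 56.5%, 67.7% and, for the 36824 tested intervals closed at neither, 12.3%. A fall at prepupa was called at 17.0% of the members, 16.4% of those low at prepupa only and 16.2% of those low at 6 d only. The joint test called 95.3%, 97.4% and 80.5% of these sets, in that order. Differences between these sets were not tested.

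The members were spread over the assembly with some local groups. They lay on 215 of 964 contigs and in 527 of 6157 windows of 100 kb that held any interval, with a single member in 420 windows and 3 or more in 22. Contig 000003F held most, with 22 members or 2.42% of its 910 intervals open in both groups. The share was higher on contig 000173F, with 14 of 129 (10.9%), and on contig 000219F, with 7 of 22 (31.8%). Another member lay within 10 kb of 121 members and within 50 kb of 242.

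The window with most members was contig 000003F, 5200001 to 5300000, where 7 of the 14 intervals open in both groups were members. They lay between 5264818 and 5294703, 3 of them side by side from 5266396 to 5269559. The most open of these, 5268827 to 5269559, had 56.1, 57.5 and 61.3 CPM at the 5th instar, 2.98, 3.12 and 2.01 CPM at the prepupa, 42.2, 48.3 and 35.9 CPM at 72 h and 3.52, 1.98 and 3.92 CPM at 6 d in the forewing. In the hindwing it had 45.9, 61.7 and 59.0 CPM at the 5th instar, 22.4, 50.1 and 20.6 CPM at the prepupa, 4.51, 3.30 and 3.89 CPM at 72 h and 3.90, 4.99 and 3.69 CPM at 6 d. The closed groups of either wing were at about the same low level, and the highest hindwing prepupa library was again replicate 2 (edgeR, 5th instar and prepupa over 72 h and 6 d, log2 difference 3.36, SE 0.30, adjusted p = 1.05e-06). Of the 7, 6 were called in that hindwing contrast, and the exception, 5264818 to 5265549, had a difference of 0.49 (adjusted p = 0.308).

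Of 5 windows with 4 members, that with the highest share of members among its intervals lay on contig 000110F, 1500001 to 1600000. Its members lay between 1500366 and 1502552 and were 4 of the 8 intervals there that were open in both groups. Its most open member, 1502214 to 1502552, had 16.4, 37.6 and 24.98 CPM at the 5th instar, 0.309, 0.101 and 0 CPM at the prepupa, 32.5, 41.5 and 35.5 CPM at 72 h and 2.17, 4.89 and 3.92 CPM at 6 d in the forewing. In the hindwing it had 14.3, 33.9 and 27.7 CPM at the 5th instar, 16.3, 38.6 and 12.9 CPM at the prepupa, 3.19, 2.81 and 4.98 CPM at 72 h and no read at 6 d. The hindwing 6 d level was at least 205-fold below the 5th instar, with a floor of 3 counts over the group (edgeR, adjusted p = 1.75e-06). The most closed group was thus that labelled prepupa in the forewing and that labelled 6 d in the hindwing, 2 groups alike in level over the members. The window on contig 000009F, 1500001 to 1600000, held 5 members of 22 intervals open in both groups, led by 1561530 to 1562821 with 66.5 ± 11.6 CPM at the 5th instar, 14.7 ± 5.27 at prepupa, 59.7 ± 12.7 at 72 h and 10.02 ± 1.35 at 6 d in the forewing (SD, n = 3 each).

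Intervals near members shared their pattern in part. Among 610 other forewing intervals with a mean of at least 1 CPM and within 1 kb of a member, the log2 ratio of 5th instar and 72 h to prepupa and 6 d had a median of 0.62 (quartiles 0.10 and 1.31), and 35.4% were at least 2-fold higher in the open groups, against 7.40% of all such intervals. The median was 0.27 from 1 to 2 kb, 0.14 from 2 to 5 kb, 0.02 from 5 to 10 kb and -0.30 beyond 100 kb or on contigs without members, against -0.25 over all 191326 such intervals and 2.48 at the members themselves. In the hindwing the log2 ratio of 5th instar and prepupa to 72 h and 6 d at the same places had a median of 0.42 within 1 kb, 0.10 from 2 to 5 kb and -0.05 beyond 100 kb. The ratio was thus highest next to the members in both wings and near or below 0 from 5 to 10 kb on. These values come from the libraries that chose the members in the forewing and are a description.

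**Figure D5:**
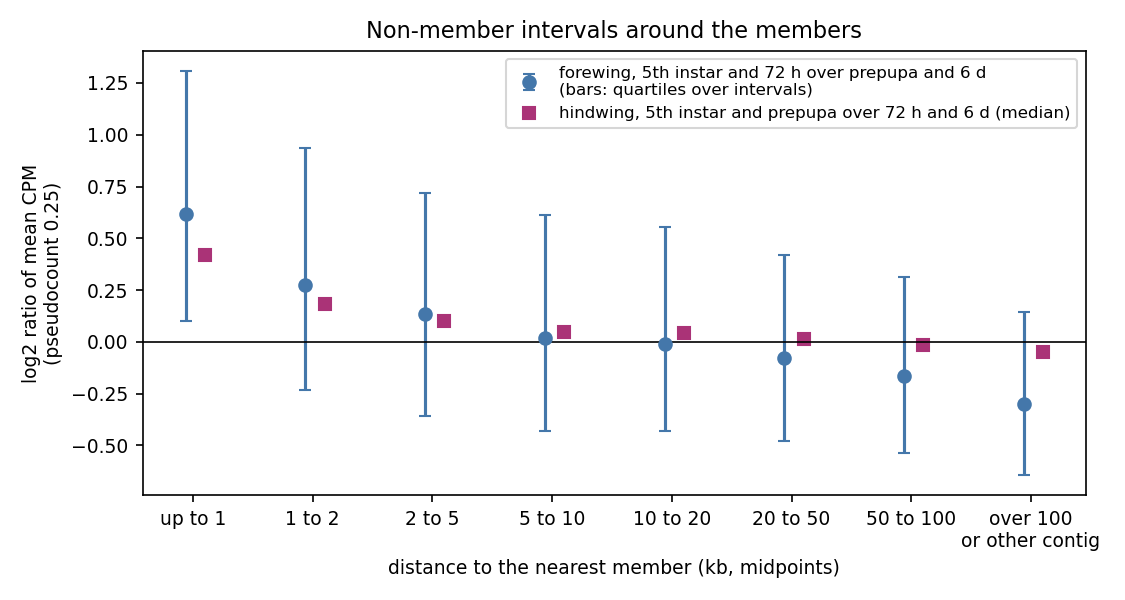
Log2 ratio of mean CPM (0.25 added) in non-member intervals of at least 1 CPM by distance from their midpoint to the nearest member's. Circles give the forewing median of 5th instar and 72 h over prepupa and 6 d with quartiles over intervals as bars, and squares the hindwing median of 5th instar and prepupa over 72 h and 6 d. Both decline with distance, the forewing median being 0.62 within 1 kb and -0.30 beyond 100 kb.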

How the data were processed

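The authors deposited a table of raw read counts for each wing, 1 row per peak interval and 1 column per library. Bowtie2 and deepTools were used, per the submitters' processing notes. Not given in the sources used here are the genome build, the peak caller, whether samples were pooled to call peaks, how duplicates were handled and whether reads were shifted for Tn5. If duplicates were kept, counts overstate the number of independent fragments, and floors cover counting error only. Interval starts, which count from 0 in the tables, are given counted from 1.

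Libraries were grouped by the wing and stage in their titles. Replicates are numbered in the labels, which name no separate animals. The p-values therefore reflect the spread among these libraries alone, and that spread may be technical. CPM values use library totals. Members and lists were chosen with earlier results of these data known.

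Hindwing contrasts were fitted with edgeR 4.0.16 (quasi-likelihood F test, R 4.3.3) on the whole hindwing table, with TMM factors, filterByExpr (minimum count 10, minimum total 15), all 12 libraries in 1 fit, and Benjamini-Hochberg adjustment over 258640 tested intervals. All log2 changes, SEs and adjusted p-values are from that fit and so on the TMM scale, unlike the CPM values beside them. The SE was derived as the absolute log2 change divided by the square root of its F statistic. Forewing levels of members are not tested. All 667 members would have passed the same filter in the forewing. The test was checked on simulated data. Alternatives were DESeq2 1.42.0, other scalings, filters, overlaps, a replicate block and omission of libraries. Named intervals were the 10 members of highest level, those with the lowest adjusted p in each hindwing pair contrast and direction, the leading members of the 3 windows with most members (ties by the share of members among the window's intervals), those at the thresholds, those with extreme ratios of 72 h to 5th instar, and the widest. No member lacked reads in all 6 closed forewing libraries. The interval with the widest gap, the members without a hindwing interval and the exception at contig 000024F were chosen after their values were seen.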

Additional observations from a re-analysis of the deposited data

How the results depend on the processing

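The number of members was 2009 with a gap of 2-fold and 301 with a gap of 4-fold in place of 3-fold. It was 886 and 504 with a minimum of 2 and 5 CPM, 942 on TMM-normalized CPM (591 of the 667 kept), 700 with medians, and 615 to 822 with a replicate number left out. The order was kept in the left-out replicate at 592 to 733 intervals.

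With a reciprocal overlap of at least 80%, 331 members had a hindwing interval, 50% giving 549. Of 331 tested, 316 were higher at 5th instar and prepupa, and 144 were higher and 0 lower at 5th instar and 72 h. At prepupa 3 were higher and 59 lower, at 72 h 0 higher and 263 lower, and at 6 d 317 lower. The joint test called 320. The fit, and so the background over all tested intervals, is the one given above. With at least 50 counts in 3 libraries, 443 members were tested, with 168 higher and 17 lower at 5th instar and 72 h. Over all 55082 intervals then tested, 18653 were higher and 17171 lower. At prepupa 19 members were higher and at 6 d 1, against 8214 and 13938 over all tested intervals. With library totals alone, 5th instar and 72 h gave 184 higher and 41 lower, against 30451 and 85783 of all 258640 tested intervals. Prepupa gave 15 higher and 6 d 1 higher, against 10258 and 46012. The median over all tested intervals was -0.50 for 5th instar and 72 h, 0.37 at prepupa, -0.23 at 72 h and 0.47 at 6 d. With loess offsets, 190 were higher and 44 lower at 5th instar and 72 h, against 45650 and 36765 of all 258640 tested intervals. At prepupa 14 were higher and at 6 d 2, against 6579 and 23487. Without hindwing prepupa replicates 1 and 3, 127 were higher and 25 lower at 5th instar and 72 h, 25 higher and 9 lower at prepupa, and the prepupa median was 0.031 in place of -0.72. The causes were not tested.

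With a library left out, 646 to 652 members were tested. The counts higher and lower were 562 to 611 and 0 to 1 for 5th instar and prepupa. They were 219 to 412 and 2 to 8 for 5th instar and 72 h, and 3 to 11 and 34 to 348 at prepupa. At 72 h they were 0 to 2 and 375 to 509, at 6 d 0 and 548 to 617, and jointly 593 to 626. Over all 283164 to 292176 tested intervals they were, in that order, 15697 to 21551 and 12013 to 16539, and 46699 to 58854 and 28856 to 40784. At prepupa they were 1080 to 6084 and 3768 to 19123, and at 72 h 16636 to 25867 and 8692 to 15195. At 6 d they were 11177 to 23916 and 31315 to 45114, and jointly 87429 to 113725. Same-numbered hindwing libraries deviated together little (r of -0.07 to 0.12, with 2 of 18 pairs above 0.1). Such correlations cannot show whether the numbers pair the samples. With the replicate block 587 were higher at 5th instar and prepupa and 286 at 5th instar and 72 h. Over all 258640 tested intervals 18003 and 48224 were higher. Each other count over members stayed within 1.5 times. Low counts in the closed groups limit the precision of every gap.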

Other observations

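At 10 members no read was counted in the 3 forewing prepupa libraries, and at none were the 3 forewing 6 d libraries without reads. Contig 000741F, 22634 to 22827, was the most open of the 10, with means of 6.38 CPM at the 5th instar and 6.08 CPM at 72 h. With a floor of 3 counts over the prepupa group, these were at least 58.8-fold and 56.0-fold higher. On contig 000380F the neighbouring members 251965 to 252301 and 252371 to 252628 were both among them. In the hindwing 18 members had no read in the 3 libraries labelled 6 d. Besides contig 000110F, 1502214 to 1502552, they included its neighbour 1501916 to 1502164, with 6.48 CPM at the hindwing 5th instar, and contig 000000F, 4642254 to 4642548, with 7.11 CPM, at least 52.4-fold and 57.5-fold above 6 d.

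Contig 000027F, 519687 to 519980, was a member with 18.4 ± 1.69 CPM at 72 h and 7.29 ± 1.22 CPM at the 5th instar in the forewing, and was weak in the hindwing. There it had 0.984 ± 0.402 CPM at the 5th instar, 3.67 ± 1.09 at prepupa, 2.24 ± 0.833 at 72 h and 1.72 ± 0.433 at 6 d (SD, n = 3 each). Its hindwing difference of 5th instar and prepupa over 72 h and 6 d was -0.03 (log2, SE 0.31, edgeR adjusted p = 0.97).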
